A study of Gallus gallus with 6 samples.

Results

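The T cell receptor complex and its costimulators were followed as 9 chicken genes: CD3E, CD3D, CD4, CD8A, CD28, CTLA4, CD5, ICOS and CD40LG. They were chosen by name, through the RefSeq accession that each probe of the array carries, and they make up 9 of the 5382 genes named on the array. Together they have 17 probes of 43603, and all 17 were well above background on all 6 arrays. The study asked which genes differ between the sexes in blood leukocytes. It holds 3 samples labelled male and 3 labelled female, each on 1 single-colour array, from chickens aged 1 to 2 months. The labels name no strain, treatment or transgene for either group. The cells came from wing-vein blood, at the boundary layer of a density gradient, so every value averages over all cell types recovered there. Fewer T cells and less RNA per T cell cannot be told apart in such samples.

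T cells recognise peptides through a clonal receptor that carries no signalling motif of its own, and the CD3 chains pass the signal into the cell. The coreceptor CD4 binds MHC class II and marks helper cells, and CD8 binds MHC class I and marks cytotoxic cells. CD28 and ICOS give the second, costimulatory signal, CTLA4 restrains it, CD5 dampens receptor signalling, and CD40LG carries help to B cells and macrophages. In mammals CD8 alpha also occurs without CD8 beta, as a homodimer on natural killer cells and on some gamma delta T cells.

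Values are log2 of the processed spot intensity less the 75th percentile of that array, so 0 stands for a spot as bright as that percentile. Probes bind with different efficiency, so a probe is compared between libraries and never with another probe. The W-linked gene HINTW, which only females should carry, goes against 2 labels. It read 4.58, 4.48 and 6.99 in the libraries labelled male 1, 2 and 3, and 6.61, 6.47 and 4.65 in those labelled female 1, 2 and 3. The library labelled male 3 thus lay with those labelled female 1 and 2, and the library labelled female 3 with those labelled male 1 and 2. Differences between the labels are therefore given with and without the libraries labelled male 3 and female 3. Orders of single libraries and correlations over them do not use the labels. Each label filled a slide of its own, and the slide and the label cannot be told apart. The labels do not say whether the samples came from separate birds, so p-values measure only the spread between these samples. Between 79.0% and 83.1% of an array's spots were well above background, with no saturated spot. Precision is limited by how few arrays there are.

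None of the 9 genes passed the test between the labelled sexes. With limma, 0 of 9 passed an adjusted p of 0.05, against 0 of 29509 features (0%), and their adjusted p-values ran from 0.948 to 0.986. At an unadjusted p under 0.05 there were 0 of 9, against 3.81% of all features. The labelled groups overlapped for all 9, while they did not overlap for 8% of all features. By sign, the male-labelled mean was the higher in 3 of the 9 and the lower in 6, while 47.4% of all features were higher. The median male minus female difference was -0.04 log2 over the 9, against -0.01 log2 over all features. Without the libraries labelled male 3 and female 3, 0 of 9 passed, against 0.288% of features, with limma adjusted p-values from 0.285 to 0.979. By sign 3 were then higher and 6 lower, while 45.7% of all features were higher.

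CD3E, the invariant epsilon chain, had the smallest spread of the 9 genes. Its brightest probe, A_87_P059211, read 6.38, 6.28 and 6.42 in the libraries labelled male 1, 2 and 3, and 6.19, 6.50 and 6.50 in those labelled female 1, 2 and 3. The library labelled female 1 was lowest and those labelled female 2 and 3 were level at the top, so the labels overlapped. The whole span over the 6 libraries was 1.24-fold. Its SD of 0.12 log2 was larger than that of 14.4% of the features seen on every array. The male minus female difference was -0.03 log2 (SE 0.14, 95% interval -0.38 to 0.31, limma adjusted p = 0.975), and it was -0.0086 log2 without the libraries labelled male 3 and female 3. The sign turned to 0.016 log2 under median scaling. It also turned when the library labelled male 2, female 2 or female 3 was left out, to at most 0.0206 log2. The other 2 CD3E probes differed by -0.11 and -0.07 log2, and all 3 were lowest in the library labelled female 1.

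CD3D, the neighbouring chain of the same complex, kept another order of libraries. On its brightest probe it read 7.96, 8.08 and 7.73 in male-labelled libraries, against 7.53, 7.82 and 8.11 in female-labelled ones. The libraries labelled female 3 and male 2 were highest and that labelled female 1 was again lowest. Its span was 0.58 log2. The difference was 0.10 log2 (SE 0.19, 95% interval -0.36 to 0.57, limma adjusted p = 0.951). Leaving out the library labelled female 1 turned it to -0.0430 log2. It was 0.34 log2 when the libraries labelled male 3 and female 3 were left out (adjusted p = 0.302). The second CD3D probe gave 0.13 log2. CD247, the zeta chain that completes the signalling complex, was 1.40-fold apart over the libraries on its brightest probe and highest in the library labelled male 1, which held for all 3 of its probes.

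CD8A varied most among the 9 genes. Its brightest probe, A_87_P055301, read -0.10, 1.23 and -0.49 in the libraries labelled male 1, 2 and 3, and -0.55, -0.50 and 0.36 in those labelled female 1, 2 and 3. The library labelled male 2 stood alone at the top, 0.87 log2 above the next, that labelled female 3. Among features seen on every array, 1.72% had a highest library at least as far from the next. The span was 3.42-fold, and the SD of 0.70 log2 was larger than that of 94.7% of those features. The other 2 probes showed the same library at the top, at 0.49 and 0.77, with that labelled female 3 next on both, at -0.74 and -0.22. The 3 highest libraries on the brightest probe, those labelled male 2, female 3 and male 1, are the 3 with the lower HINTW values above. On the brightest probes the same 3 were also highest for CD3D and lowest for CD28. The other genes of the 9, CD4 among them, did not split the libraries this way. Nor did the second CD28 probe, where the library labelled male 1 (-2.14) lay above that labelled female 1 (-2.29). The CD4 against CD8A balance below contains CD8A, so its low values in these 3 libraries add nothing here. How many of all features split the libraries this way was not tested, so no meaning is read into it.

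The male minus female difference of CD8A was 0.44 log2 (SE 0.49, 95% interval -0.74 to 1.63, limma adjusted p = 0.948). It rests on 1 library: without that labelled male 2 it was -0.06 log2. Without the libraries labelled male 3 and female 3 it was 1.09 log2 (SE 0.48, adjusted p = 0.285). The other 2 CD8A probes gave 0.64 and 0.45 log2 with all libraries. They gave 1.47 and 1.17 log2 without those labelled male 3 and female 3 (limma adjusted p over single probes 0.218 and 0.281).

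The gene of CD8 beta, listed under the symbol CD8BP, peaked in another library than CD8A. Its brightest probe read 2.83, 2.73 and 2.33 in male-labelled libraries, against 1.80, 2.47 and 4.12 in female-labelled ones. Here the library labelled female 3 was highest, 1.29 log2 above the next, and that labelled female 1 lowest, a span of 5.01-fold. The second CD8BP probe showed the same library at the top by 1.22 log2. CD8A less CD8BP, centred over the libraries, was -0.21, 1.22 and -0.09 log2 in male-labelled libraries, against 0.38, -0.25 and -1.04 in female-labelled ones. The chain ratio was thus highest in the library labelled male 2 and lowest in that labelled female 3, although both had high CD8A. The label difference of this ratio was 0.61 log2 (two-sided exact permutation p = 0.40, the smallest possible being 0.10), and 0.45 log2 with the libraries labelled male 3 and female 3 left out.

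Markers of cytotoxic cells were highest in the same library as CD8A. Of 11 such genes in the list used, 6 were measured, and each was well above background in all 6 libraries. Their summed signal, in units of the array's 75th percentile, was 68.7, 163 and 28.7 in male-labelled libraries, against 16.0, 38.2 and 32.8 in female-labelled ones. The brightest probes carry such a sum, here those of GNLY and GZMA. Taken singly, all 6 genes had their highest value in the library labelled male 2. Between the labels, male minus female, the chemokine CCL5 stood at 1.97 log2 (SE 0.72), GZMA at 1.98 (SE 1.02) and GNLY at 1.13 (SE 0.59), and none passed limma's adjusted threshold. With the libraries labelled male 3 and female 3 left out, CCL5 stood at 2.93 log2, GZMA at 3.40 and GNLY at 1.74. GZMA, the protease granzyme A, read 4.59, 5.76 and 1.87 in male-labelled libraries, against 1.01, 2.54 and 2.74 in female-labelled ones. Heterophil markers, 10 of 13 measured, summed to 39.6, 6.7 and 147.6 in male-labelled libraries, against 41.6, 14.8 and 197.0 in female-labelled ones. They were thus lowest in the library labelled male 2 and highest in that labelled female 3. Erythroid markers, 12 of 16 measured and 10 of them well above background in every library, summed to 1121, 598 and 1334 in male-labelled libraries, against 1169, 1034 and 949 in female-labelled ones. Their lowest sums were in the libraries labelled male 2 and female 3, the 2 with the highest CD8A. The globin probes, the brightest of these, carry the sum, and single markers did not all follow it. RHAG was highest in the library labelled female 3, at 4.47. The mean log2 deviation of the 12 markers was lowest in the libraries labelled male 2 and female 3, at -0.64 and -0.24. Among the erythroid genes counted, ALAS1 was taken for the listed ALAS2 through a RefSeq synonym. The part of these cell types in the CD8A values, and in those of the CD4 against CD8A balance and the costimulators below, was not tested.

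**Figure D1:**
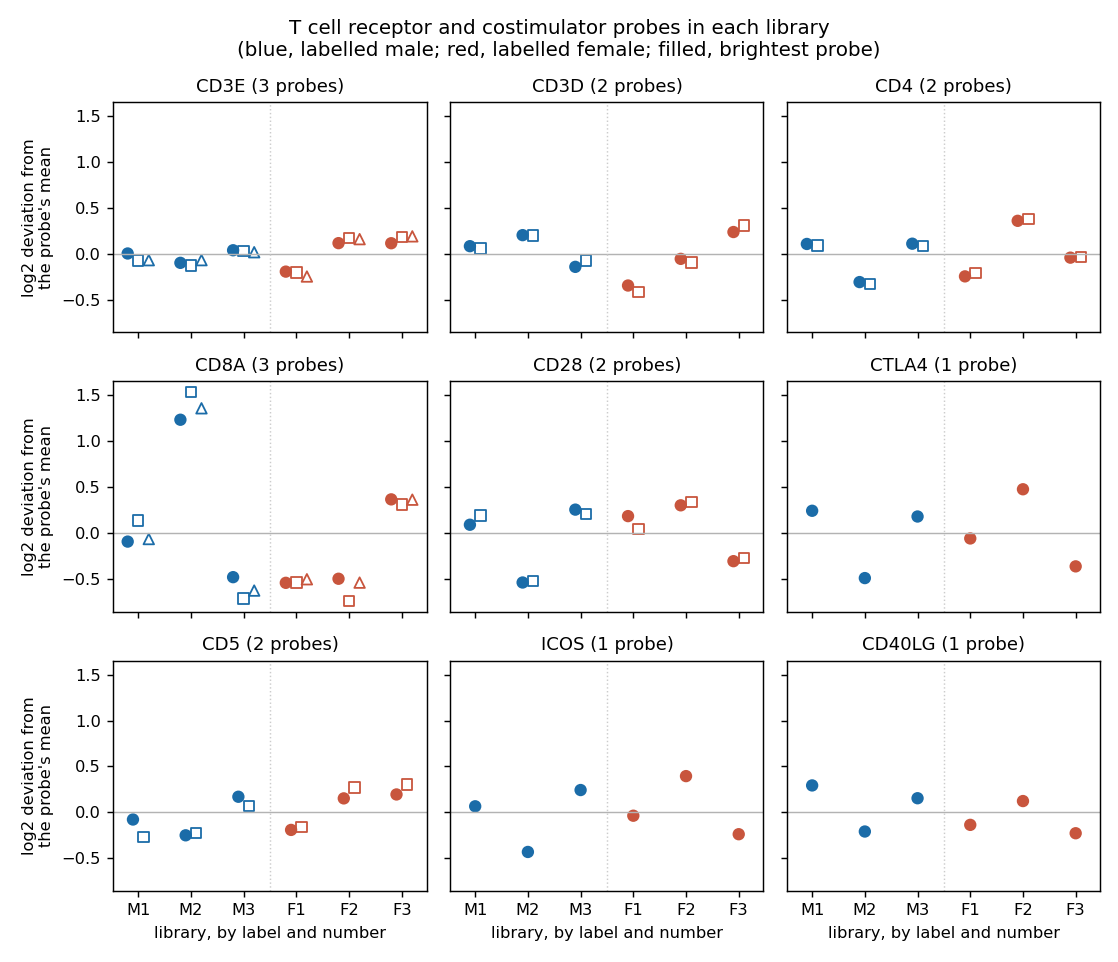
Each panel plots one gene, with every probe's log2 deviation from its own mean over the 6 libraries; M1 to M3 are the libraries labelled male (blue) and F1 to F3 those labelled female (red), filled points are the brightest probe and open points the others. CD8A stands 1.24 log2 above its mean in M2 on the brightest probe, and CD28 is lowest in M2 and then F3. The probes of a gene lie apart in places, as for CD8A in M2 (1.24 to 1.54) and CD5 in M1 (-0.08 and -0.27).

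CD4 spread less and was lowest in the 1 library where CD8A was highest, that labelled male 2. Its brightest probe, A_87_P035148, read 0.49, 0.07 and 0.49 in male-labelled libraries, against 0.14, 0.74 and 0.34 in female-labelled ones. The library labelled female 2 was highest and that labelled male 2 lowest, with a span of 1.59-fold. The difference was -0.05 log2 (SE 0.21, 95% interval -0.57 to 0.46, limma adjusted p = 0.972), and the second probe gave -0.10 log2. Without the library labelled male 2 it was 0.08 log2, and without that labelled female 2 it was 0.11 log2, so its sign rests on either. It was -0.16 log2 when those labelled male 3 and female 3 were left out. The library labelled female 1, lowest for CD8A on the brightest probe, was next to lowest for CD4. Over the 6 libraries CD4 had a Pearson r of -0.58 with CD8A (exact permutation p = 0.219). That relation rests on 2 libraries, since r was 0.16 without those labelled male 2 and female 3.

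The balance of CD4 against CD8A was taken as the difference of their log2 values in each library, centred on the mean of the 6. The libraries labelled male 1, 2 and 3 stood at 0.20, -1.54 and 0.59 log2, and those labelled female 1, 2 and 3 at 0.30, 0.86 and -0.41. The balance leaned furthest to CD8A in the library labelled male 2, then in that labelled female 3, and furthest to CD4 in that labelled female 2. From end to end the libraries differed 5.27-fold. With the other probes the span was 5.42-fold to 7.91-fold, and all 6 pairings of a CD4 with a CD8A probe put the libraries in the same order.

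By label, the balance averaged -0.25 ± 1.13 log2 in male-labelled and 0.25 ± 0.63 log2 in female-labelled libraries (SD, n = 3 each). The male minus female difference was -0.50 log2 (two-sided exact permutation p = 0.60, where 3 against 3 cannot go below 0.10). One library decides it: without that labelled male 2 the difference was 0.15 log2. It was -1.25 log2 when those labelled male 3 and female 3 were left out (exact permutation p = 0.333, the smallest that 2 against 2 allows).

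**Figure D2:**
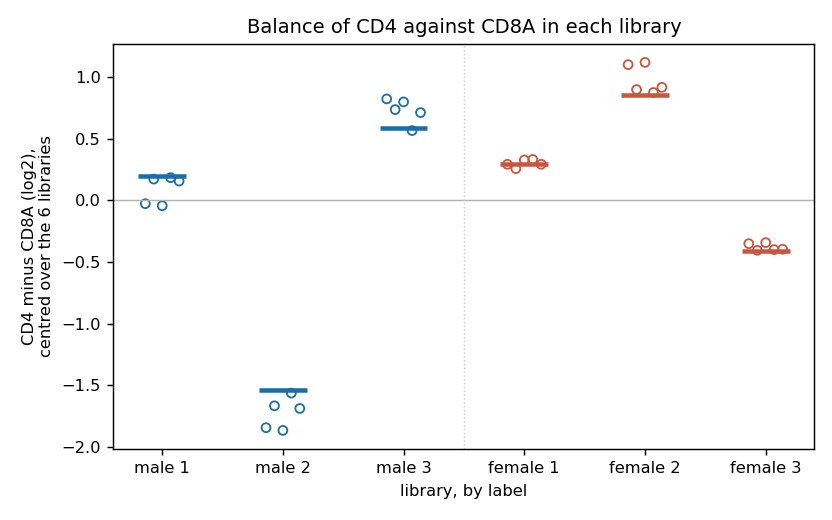
The vertical axis is CD4 minus CD8A in log2, centred over the 6 libraries, so that higher values lean to CD4; horizontal marks show the brightest probes (blue, labelled male; red, labelled female) and open circles the other 5 pairings of a CD4 and a CD8A probe. The library labelled male 2 sits at -1.54 and that labelled female 3 at -0.41, and the other 4 lie above 0 with the brightest probes.

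CD28, ICOS and CTLA4 are related immunoglobulin-type receptors that share a stretch of chromosome 7 in the RefSeq annotation. There CTLA4 and CD28 are direct neighbours, with 1 non-coding gene between CTLA4 and ICOS. All 3 had their lowest value in the library labelled male 2 and the next lowest in that labelled female 3, and all 3 were highest in that labelled female 2. CD28, which binds CD80 and CD86 and gives the main costimulatory signal, read 1.77, 1.14 and 1.93 in male-labelled libraries, against 1.86, 1.98 and 1.37 in female-labelled ones. The span was 1.79-fold. Its difference was -0.12 log2 (SE 0.27, 95% interval -0.77 to 0.52, limma adjusted p = 0.955), and its second probe gave -0.08 log2. It was -0.47 log2 without the libraries labelled male 3 and female 3 (adjusted p = 0.353).

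ICOS, the inducible costimulator of helper cells, followed the same order at the low end. Its only probe read -0.85, -1.34 and -0.67 in male-labelled libraries, against -0.95, -0.52 and -1.15 in female-labelled ones, a span of 1.77-fold. The labels overlapped, and the difference was -0.08 log2 (SE 0.25, 95% interval -0.68 to 0.52, limma adjusted p = 0.966). CTLA4, which competes with CD28 for the same ligands and restrains the response, spread somewhat wider. It read 2.46, 1.72 and 2.39 in male-labelled libraries, against 2.15, 2.69 and 1.85 in female-labelled ones, a span of 1.95-fold. Its difference was -0.04 log2 (SE 0.29, 95% interval -0.75 to 0.67, limma adjusted p = 0.986). The signs of these 3 genes rest on single libraries as well. Without that labelled male 2 the differences were 0.11 log2 for CD28, 0.11 for ICOS and 0.19 for CTLA4. Without that labelled female 2 they were 0.10 log2 for ICOS and 0.19 for CTLA4. With the libraries labelled male 3 and female 3 left out they were -0.36 log2 for ICOS and -0.33 for CTLA4.

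CD40LG, which activated helper T cells present to CD40 on B cells, read 0.54, 0.04 and 0.40 in male-labelled libraries, against 0.11, 0.37 and 0.02 in female-labelled ones. The libraries labelled female 3 and male 2 were again the lowest, but that labelled male 1 was highest. The span was 1.43-fold. The difference was 0.16 log2 (SE 0.18, 95% interval -0.29 to 0.60, limma adjusted p = 0.948), and 0.05 log2 without the libraries labelled male 3 and female 3. Leaving out 1 library gave 0.05 log2 without that labelled male 1, 0.09 without female 3, 0.26 without female 2 and 0.30 without male 2. CD5, a scavenger-receptor type protein of T cells and some B cells, read 3.94, 3.77 and 4.19 in male-labelled libraries, against 3.83, 4.17 and 4.21 in female-labelled ones. The library labelled female 3 was highest and that labelled male 2 lowest, 1.36-fold apart. Its difference was -0.10 log2 (SE 0.18, 95% interval -0.53 to 0.32, limma adjusted p = 0.948) and -0.28 log2 on the second probe, and it was -0.14 log2 when the libraries labelled male 3 and female 3 were left out. It was -0.0060 log2 without that labelled male 2, -0.03 without female 3 and -0.05 without female 2, and -0.22 without male 3 and -0.23 without female 1.

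**Figure D3:**
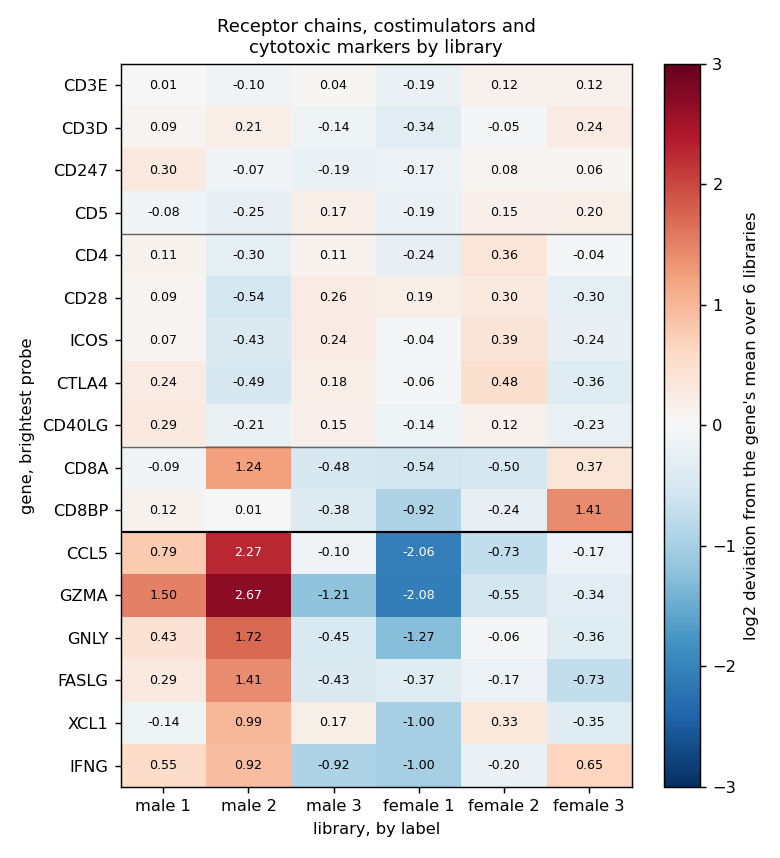
Each row is a gene (brightest probe) and each column a library by its label, coloured by the log2 deviation from the gene's mean over the 6 libraries and written in the cell; receptor chains and costimulators stand above the thick line and cytotoxic markers below it. In the column labelled male 2 CD8A stands at 1.24 and CD28 at -0.54, while CD8BP peaks in the column labelled female 3 at 1.41.

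**Figure D4:**
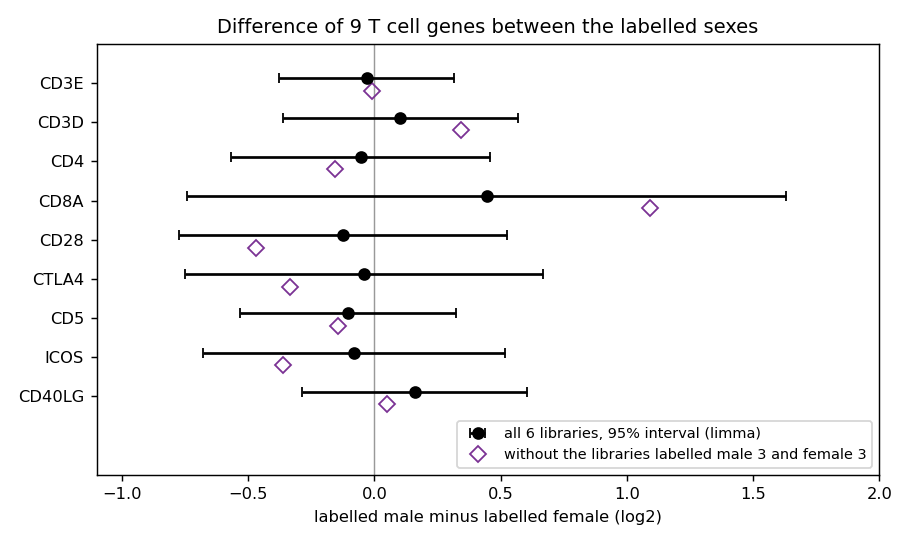
Filled points give the male minus female difference in log2 for the 9 genes with all 6 libraries, with its 95% interval from limma, and open diamonds the difference over the 4 libraries left when those numbered 3 are dropped. Every interval spans 0, and CD8A has the widest, from -0.74 to 1.63.

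Co-variation with CD3E was measured as the correlation over the 6 libraries, which share their slide within a label and the scaling of each array. All other features were run the same way, and p-values are exact over the 720 orders of the libraries. CD5 was nearest to CD3E, with Pearson r = 0.89 (exact permutation p = 0.0139) and Spearman rho = 0.77 (exact permutation p = 0.103). After Benjamini-Hochberg adjustment over the 29508 other features both were at 1.0. The libraries farthest from the CD3E median were those labelled male 2 and female 1, and r was 0.77 with both left out. With the brightest probe of each gene, CD5 was the only 1 of 8 with an r of at least 0.8, against 1.76% of all features. The second CD5 probe was lowest in the library labelled male 1, at -0.31, while CD3E was lowest in that labelled female 1. How far the r of CD5 depends on its probe was not tested. CD4 followed with r = 0.78 (exact permutation p = 0.0708) and rho = 0.77 (exact permutation p = 0.103). That relation rests on the 2 farthest libraries, since r was 0.18 without them.

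The remaining relations with CD3E were weaker. Pearson r was 0.46 for CD3D, 0.42 for ICOS, 0.35 for CTLA4, 0.31 for CD40LG, 0.13 for CD28 and -0.12 for CD8A. Spearman rho was 0.31 for CD3D, 0.54 for ICOS, 0.49 for CTLA4, 0.03 for CD40LG, 0.43 for CD28 and 0.03 for CD8A. Their exact permutation p-values ran from 0.297 to 1.0, and none passed after adjustment over all features. CD3D belongs to the same complex and is the direct neighbour of CD3E on chromosome 24, and 14.3% of all features had an r with CD3E at least as high as its own.

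**Figure D5:**
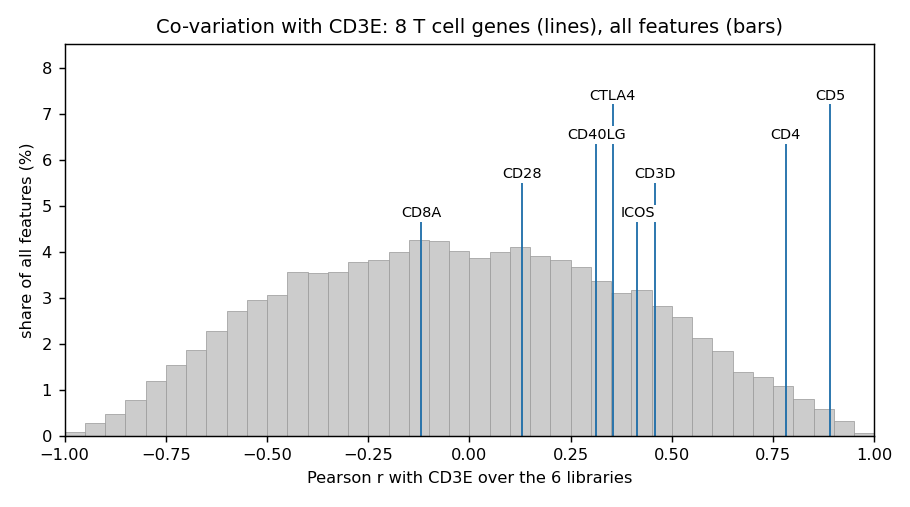
Bars give the share of all other features, in percent, by their Pearson r with CD3E over the 6 libraries, and lines mark 8 T cell genes. CD5 at 0.89 and CD4 at 0.78 lie at the right edge of the bars, and CD8A at -0.12 lies near their middle.

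CD8A and CD28 ran in opposite directions over the libraries. Their Pearson r was -0.97 (exact permutation p = 0.00694, adjusted over all features 0.429) and their Spearman rho -0.83 (exact permutation p = 0.0583, adjusted 0.299). Without the libraries labelled male 2 and female 3, r was -0.79 with the brightest CD28 probe. Among the rest, the second CD28 probe was lowest in the library labelled female 1 (-2.29), as CD8A was (-0.55). The r without those 2 libraries thus depends on the probe. Of all features, 0.119% had an r with CD8A as low as the -0.97 of CD28. Some erythroid genes moved with this pattern, by an observation made after their values were seen. The globins HBAD and HBA1 and the carbonic anhydrase CA2 each had r = -0.96 with CD8A, and 0.91 to 0.92 with CD28, and their part in it was not tested. They are the extreme of the 12 erythroid markers measured. The others ran from -0.93 (SLC4A1) to -0.06 (ALAS1) with CD8A, save XK, which went the other way at 0.57. An r of at most -0.8 was found for 3 of the 8 genes, against 5.49% of all features. ICOS and CTLA4 had an r with CD8A of -0.86 and -0.81, but of -0.26 and 0.18 without those 2 libraries, so these relations rest on them. CD3D ran with CD8A instead, at r = 0.79 (exact permutation p = 0.0528, adjusted over all features 0.521) and rho = 0.89 (exact permutation p = 0.0333, adjusted 0.261), and r was 0.80 without them.

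The chromosome 7 receptors ran together, though CD4, on chromosome 1, also ran with ICOS and CTLA4. CD28 had r = 0.93 with ICOS (exact permutation p = 0.00417, adjusted over all features 0.553) and rho = 0.94 (exact permutation p = 0.0167, adjusted 0.491). With CTLA4 it had r = 0.91 (exact permutation p = 0.0111, adjusted 0.553) and rho = 0.83 (exact permutation p = 0.0583, adjusted 0.491). Of all features, 0.61% had an r with CD28 at least as high as that of ICOS, and 1.31% at least as high as that of CTLA4. Without the libraries labelled male 2 and female 3, r was 0.79 with ICOS and 0.43 with CTLA4, on the brightest CD28 probe. Among the rest, the second CD28 probe was lowest in the library labelled female 1 (-2.29) and highest in that labelled female 2 (-1.99). CTLA4 had its lowest and highest values of the rest there too, at 2.15 and 2.69. How far the relation with CTLA4 rests on the 2 libraries thus depends on the CD28 probe. CD4 had r = 0.86 with ICOS, 0.86 with CTLA4 and 0.66 with CD28, and none passed after adjustment. Of all features, 0.525% had an r with CD4 at least as high as that of ICOS, and 0.596% as that of CTLA4. Without the libraries labelled male 2 and female 2, the farthest from the CD4 median, r was 0.53 with ICOS and 0.55 with CTLA4.

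Outside the 9 genes, the named genes with the pattern most like CD3E were HCRT (r = 0.95), POMK (0.94), PROC (0.93), LCAT (0.92) and KIZ (0.91). They were taken from 2573 named genes that were well above background on all 6 arrays with an SD of at least 0.2 log2. For CD4 they were ELAVL4 (0.95), ITGB3BP (0.94) and C2CD2L (0.94), and for CD8A they were HDX (0.98), MST1 (0.97) and GATD3A (0.97). None passed after adjustment over all features.

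Other genes of the T cell pathway, taken by list, did not pass between the labelled sexes either. Of the other receptor chains and coreceptors 3 of 9 were measured, 1 higher and 2 lower in the male-labelled mean, with CD8BP at -0.17 log2 (SE 0.58), the phosphatase PTPRC at -0.03 (SE 0.25) and CD247 at 0.02 (SE 0.17). With the libraries labelled male 3 and female 3 left out, CD8BP turned to 0.64 log2, PTPRC stood at -0.27 and CD247 at 0.16. Of receptor-proximal signalling genes 10 of 34 were measured, 5 higher and 5 lower, by a median of -0.02 log2. The kinase SYK was at -0.36 log2 (SE 0.30) and the phosphatase PTPN6 at 0.26 (SE 0.22), against -0.57 and 0.37 with those 2 libraries left out. Of further costimulators and checkpoints 9 of 19 were measured, 3 higher and 6 lower, by a median of -0.01 log2, with the inhibitory receptor CD200R1A at -0.20 (SE 0.20) and, with those 2 left out, at -0.33. Of ligands on presenting cells 4 of 11 were measured, 2 in each direction, by a median of 0.05 log2. CD86 was at 0.47 log2 (SE 0.32) and ICOSLG at 0.14 (SE 0.22), against 0.50 and 0.19 with those 2 left out. Of T cell transcription factors 14 of 28 were measured, 5 higher and 9 lower, by a median of -0.04 log2. RUNX1 was at -0.29 log2 (SE 0.12), LEF1 at -0.30 (SE 0.16) and TCF7 at -0.33 (SE 0.19), against -0.28, -0.33 and -0.47 with those 2 left out. The medians of the 5 lists, in the order given, were then 0.16, 0.0079, 0.10, 0.04 and -0.16 log2, so the first 3 turned in sign, while that of all features was -0.04 log2. No gene of these 5 lists passed limma's adjusted threshold, with all libraries or without those labelled male 3 and female 3.

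Markers of the other cell types in the fraction were checked with the same fit. The measured markers numbered 6 of 11 for cytotoxic cells, 9 of 14 for B cells, 9 of 14 for monocytes, 6 of 13 for thrombocytes, 10 of 13 for heterophils and 12 of 16 for erythroid cells. Their median male minus female differences were 0.99, 0.31, 0.24, -0.10, -0.53 and -0.17 log2 in that order. With the libraries labelled male 3 and female 3 left out they were 1.54, 0.55, 0.37, -0.03, -0.70 and -0.61 log2. No marker passed limma's adjusted threshold either way. Some were taken for a listed gene through a RefSeq synonym, namely ALAS1 for ALAS2, SH2D6 for BLNK and TREMB2 for TREML2. Among heterophil markers these were DEFB4A for AvBD2, CATH1 for CATHL1 and CATH2 for CATHL2. The summed signal of the 9 T cell genes ranged from 329.8 to 372.1 in the libraries labelled male and from 283.4 to 395.7 in female-labelled ones. This sum is nearly all CD3D and CD3E, whose probes are the brightest, and says little of the dimmer genes. Over B cell markers the sums ranged from 111.8 to 123.2 in the male-labelled and 94.5 to 119.7 in the female-labelled libraries. All 9 T cell genes, CD3E, CD3D, CD4, CD8A, CD28 and CD5 among them, were well above background in all 6 libraries. Not all of them are confined to T cells, as CD5 also occurs on some B cells.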

How the data were processed

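Leukocyte RNA was read on 6 single-colour arrays, grouped by label. The processed spot intensity deposited by the authors comes from Agilent Feature Extraction, version 11.5.1.1 per the file headers, is background-subtracted and is not scaled between arrays. The authors' deposited value table is that intensity times 1 factor per array (2.10 to 2.31), linear and uncentred, with an unknown scaling target. Its column medians were 286, 292 and 301 in male-labelled and 318, 313 and 291 in female-labelled libraries.

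Here 3 to 12 outlier spots per array were dropped, log2 was taken, each array's 75th percentile was subtracted, and repeat spots were averaged. Probes well above background on at least 3 arrays were kept (35141 of 43603), and the brightest one stands for its gene. RefSeq accessions named 11935 probes of 5382 genes through the table of bGalGal1.mat.broiler.GRCg7b. The array grid is of galGal3, per the file headers, so coordinates are left out.

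The labels were compared with limma 3.58.1 in R 4.3.3 (lmFit, eBayes, two-sided, Benjamini-Hochberg over 29509 features or 35134 single probes). Correlations and the CD4 against CD8A balance used exact permutations. The fits were tested on simulated data. The genes, lists and tests were chosen with earlier results of these data known. Named besides the 9 genes were, in each list, up to 3 genes of lowest p, and the genes most like CD3E, CD4 and CD8A. One gene that this rule names is not reported here. CD28 as an anchor, the CD8A less CD8BP ratio, single probes and the fit without the libraries labelled male 3 and female 3 were added after the values were seen. Alternatives covered background correction (normexp, offset 50, on the median spot signal), scaling, filters, probe summaries, test settings, a replicate block and left-out libraries.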

Additional observations from a re-analysis of the deposited data

How the results depend on the processing

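With limma, 0 of the 9 genes passed under any of the 18 alternatives run, and the adjusted p by gene stayed at or above 0.285. In the fit of single probes without the libraries labelled male 3 and female 3, a CD8A probe reached 0.218. Direction held in 156 of 170 combinations of gene and alternative, single probes included, and turned in 14. Many of these could not turn. The filters, the test settings and the replicate block left every difference unchanged, as did the probe summaries for CTLA4, ICOS and CD40LG, which have 1 probe. Every turn came under median scaling or with 1 library left out. CD3E turned to 0.016 and CTLA4 to 0.0059 log2 under median scaling, where the median of all features was 0.03 log2, against -0.01 log2 as reported. Leaving out 1 library at a time gave -0.13 to 0.0206 log2 for CD3E, -0.0430 to 0.25 for CD3D, -0.19 to 0.11 for CD4, -0.0623 to 0.79 for CD8A, -0.31 to 0.11 for CD28, -0.23 to 0.19 for CTLA4, -0.22 to 0.11 for ICOS, -0.23 to -0.0060 for CD5 and 0.05 to 0.30 for CD40LG. The same gave -0.92 to 0.15 log2 for the CD4 against CD8A balance, negative in all but that without the library labelled male 2, and the cause was not tested. A factor per array cancels in the balance, so median scaling and the deposited values could not move it. It was -0.49 log2 after normexp, -0.51 after quantile normalization and -0.50 to -0.74 with other probe pairs. Over all features, 1 passed after quantile normalization, 85 without the libraries labelled male 3 and female 3, and 0 to 2 without 1 library, the 2 without that labelled male 1. The number of genes with an r of at least 0.8 with CD3E was 2 after normexp, after quantile normalization and with the deposited values, and 1 to 2 without 1 library; the cause was not tested. Replicate numbers are shared between the labels. Deviations from the label means correlated at 0.01, -0.11 and -0.21 between same-numbered libraries, and no library correlated best with its own number. With 3 libraries to a label this cannot show whether a number stands for shared handling. With the replicate block 0 features passed, as without it, CD8A kept 0.44 log2 (adjusted p = 0.963) and the balance -0.50 log2 (exact permutation p = 0.75).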

Other observations

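LAG3, an inhibitory relative of CD4 on activated and cytotoxic lymphocytes, was highest in the same library as CD8A. It read -0.15, 1.08 and -0.87 in the libraries labelled male 1, 2 and 3, and -1.27, -0.33 and -0.64 in those labelled female 1, 2 and 3. The library labelled male 2 was 1.22 log2 above the next, and on the second probe 0.99 log2 above it. Labelled male minus female, it stood at 0.77 log2 (SE 0.52), which did not pass limma, and at 1.26 log2 with the libraries labelled male 3 and female 3 left out. IL2RA, the alpha chain of the interleukin 2 receptor, was lowest in that library, at -5.12, against -3.54 to -4.22 in the other 5, with a difference of -0.59 log2 (SE 0.33), and of -0.92 log2 with those 2 left out.

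CD80, a ligand of CD28 and CTLA4 that RefSeq lists under the symbol CD88, was highest in the library labelled female 1. Both receptors were highest in that labelled female 2, where CD80 was next, and the r of CD80 with CD28 was 0.58. CD80 read 2.14, 2.01 and 2.02 in male-labelled libraries, against 2.87, 2.62 and 1.94 in female-labelled ones. Only the libraries labelled female 1 and 2 stood out, on all 3 of its probes. On the brightest probe the labels differed by -0.42 log2, male minus female (SE 0.25), which did not pass limma, and by -0.67 log2 with the libraries labelled male 3 and female 3 left out.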
